A study of Mus musculus with 9 samples.

Results

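The Ms4a genes of mouse lung macrophages were examined in RNA sequencing of 9 samples of sorted cells. The members were 7 genes taken by symbol, Ms4a4a, Ms4a4b, Ms4a4c, Ms4a6b, Ms4a6c, Ms4a6d and Ms4a7, out of 24346 gene symbols with values. Values were read for 6 of the 7, and all 6 passed the filter on low values described below, which 10686 genes passed in all. Ms4a4a was not analysed here.

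The samples came from C57BL/6 mice at postnatal week 10 and formed 3 groups of 3. Ctrl-AM were alveolar macrophages (AMs) of mice that received vehicle in the lung. Tumor-AM were AMs of mice whose left lung had been inoculated with Lewis lung carcinoma (LLC) cells, a C57BL/6 lung cancer line that here carried the fluorescent protein tdTomato. Tumor-macrophage were the tumor-associated macrophages (TAMs) of such LLC-bearing mice. AMs were sorted as CD45+ autofluorescent Siglec-F+ cells, and TAMs as CD45+ autofluorescent cells without Siglec-F but with CD11b and a pan-macrophage surface protein. No group was a genetic model, and the tumor was 1 transplanted cell line. TAMs came from tumor-bearing mice alone, so that effects of cell type and of the tumor cannot be told apart between TAMs and Ctrl-AM. Effects of cell type and of place in the lung cannot be told apart between TAMs and either AM group. Replicates of a group were separate mice by the study's description, and whether a mouse gave both Tumor-AM and Tumor-macrophage cells was not stated.

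The MS4A proteins are small membrane proteins that cross the cell membrane several times and sit beside receptors in immune cells. The best known are CD20, encoded by Ms4a1 and found on B cells, and the beta chain of the high-affinity IgE receptor, encoded by Ms4a2 and found on mast cells. Ms4a4a, Ms4a6 genes and Ms4a7 are known from monocytes and macrophages, where Ms4a4a has been described together with the fungal receptor Dectin-1, and in humans the gene cluster is linked to the level of soluble TREM2. Ms4a4b is best known from T cells.

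Values were FPKM (reads scaled to the exon length of the gene and to the size of the library), so that levels of different genes can be set side by side. How the software scaled to library size was not stated, and the depth in reads given next assumes division by mapped reads. Relative depth of the 9 libraries, read from the spacing of low values, ran from 0.906 to 1.14 with Ctrl-AM 1 as 1, and estimated depth from 9730000 to 12200000 reads. The marker of the sort followed the labels. Siglecf, which encodes Siglec-F, was at 193 to 209 FPKM in Ctrl-AM, at 164 to 183 in Tumor-AM and at 0.456 to 0.835 in Tumor-macrophage. Summed over 8 AM markers (Siglecf, Marco, Pparg, Car4, Ear1, Fabp1, Cidec and Krt79) the level was 4497 to 4622 FPKM for Ctrl-AM, 2843 to 3779 for Tumor-AM and 24.4 to 28.1 for TAMs. Summed over 7 markers of monocyte-derived macrophages (C1qa, C1qb, C1qc, Cx3cr1, Aif1, Ccr2 and Apoe) it was 110.3 to 208, 387 to 724 and 34790 to 47735 FPKM. The samples were bulk populations, in which fewer cells of a type and less RNA per cell cannot be told apart.

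The members lie in 1 cluster on chromosome 19, which spans 284 kb in the GRCm38 assembly (also called mm10, the build of the deposited data). Ms4a7 (ENSMUSG00000024672, chr19:11321039-11336146, minus strand) and Ms4a6d (ENSMUSG00000024679, chr19:11586604-11604849, minus strand) are at its ends. Between them, on the plus strand, are Ms4a4a (chr19:11375523-11392790), Ms4a4c (ENSMUSG00000024675, chr19:11404770-11427246), Ms4a4b (ENSMUSG00000056290, chr19:11443553-11467055), Ms4a6c (ENSMUSG00000079419, chr19:11469366-11482192) and Ms4a6b (ENSMUSG00000024677, chr19:11516512-11531256). The family is thought to have grown by gene duplication, and promoters of some copies are still alike. RefSeq promoters of 300 bases in the GRCm38.p6 assembly, from 250 bases before to 50 after the annotated start, were matched for 6 of the 7 members. Ms4a6d was the member without a match. The promoters of Ms4a6b and Ms4a6c are shown since these close copies had different levels in AMs. They share an identical stretch of 48 bases, printed in capitals, which occurs in 2 of 32851 RefSeq mouse promoters, and 85.3% of their aligned bases are identical (192 of 225):
Ms4a6b (chr19:11518309-11518608, plus strand): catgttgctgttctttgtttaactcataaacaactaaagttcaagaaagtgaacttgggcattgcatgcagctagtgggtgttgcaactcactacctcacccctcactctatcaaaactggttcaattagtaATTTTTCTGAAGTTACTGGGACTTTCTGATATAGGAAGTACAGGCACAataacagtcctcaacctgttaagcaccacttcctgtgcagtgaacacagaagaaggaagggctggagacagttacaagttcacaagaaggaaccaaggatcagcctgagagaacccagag
Ms4a6c (chr19:11469118-11469417, plus strand): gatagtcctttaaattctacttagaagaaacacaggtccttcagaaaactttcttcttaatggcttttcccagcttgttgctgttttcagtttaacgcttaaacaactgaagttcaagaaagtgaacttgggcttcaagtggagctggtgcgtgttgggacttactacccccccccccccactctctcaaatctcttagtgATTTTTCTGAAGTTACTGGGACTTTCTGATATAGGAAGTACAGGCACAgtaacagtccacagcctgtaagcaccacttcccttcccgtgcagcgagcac

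The second pair of close copies, Ms4a4b and Ms4a4c, shares 20 bases, again in capitals and again found in 2 promoters, with 81.9% of aligned bases identical (230 of 281). They are shown since their transcripts had very different levels in TAMs:
Ms4a4b (chr19:11443308-11443607, plus strand): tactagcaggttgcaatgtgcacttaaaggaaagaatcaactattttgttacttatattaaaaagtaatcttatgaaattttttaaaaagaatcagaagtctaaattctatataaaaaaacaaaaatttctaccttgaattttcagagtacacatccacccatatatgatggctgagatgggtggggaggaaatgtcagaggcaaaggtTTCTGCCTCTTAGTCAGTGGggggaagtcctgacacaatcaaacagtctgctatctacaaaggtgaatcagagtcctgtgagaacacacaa
Ms4a4c (chr19:11407411-11407710, plus strand): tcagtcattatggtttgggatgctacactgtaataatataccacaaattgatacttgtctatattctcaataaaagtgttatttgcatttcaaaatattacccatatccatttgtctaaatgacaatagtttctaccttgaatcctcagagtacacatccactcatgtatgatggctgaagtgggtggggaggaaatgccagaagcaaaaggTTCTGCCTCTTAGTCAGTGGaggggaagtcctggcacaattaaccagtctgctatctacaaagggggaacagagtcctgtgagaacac

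Ms4a7 and Ms4a8a, a family member outside the list, are shown since their transcripts moved in opposite directions between AMs and TAMs. The capitals in Ms4a8a mark the motif AGGAAG, and Ms4a7, of which the first of 2 promoters is given, has none:
Ms4a7 (chr19:11336097-11336396, minus strand): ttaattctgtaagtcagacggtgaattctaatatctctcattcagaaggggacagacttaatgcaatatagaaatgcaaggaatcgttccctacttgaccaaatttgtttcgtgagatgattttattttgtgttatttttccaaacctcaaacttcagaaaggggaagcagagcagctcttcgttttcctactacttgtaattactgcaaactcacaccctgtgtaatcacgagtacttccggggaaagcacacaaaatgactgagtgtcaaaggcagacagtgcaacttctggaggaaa
Ms4a8a (chr19:11081054-11081353, minus strand): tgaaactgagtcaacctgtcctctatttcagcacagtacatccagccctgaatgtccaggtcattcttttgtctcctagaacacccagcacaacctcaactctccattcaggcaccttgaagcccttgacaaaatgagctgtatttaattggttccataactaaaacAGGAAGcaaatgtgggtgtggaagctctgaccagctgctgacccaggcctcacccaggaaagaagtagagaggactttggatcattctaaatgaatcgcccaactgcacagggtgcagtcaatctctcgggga

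Outside the 2 pairs of copies, no promoters of these genes had more than 66.8% of aligned bases identical. Motifs of 4 kinds were searched on both strands. AGGAAG, a core of ETS factors and PU.1, is present in 35.4% of all RefSeq promoters of this length. It starts 17 bases before the annotated start of Ms4a6c and 86 bases before that of Ms4a6b, in both within the shared stretch, and Ms4a6b has it also 17 bases before the start and, on the opposite strand, 42 bases before it. TGANTCA, an AP-1 motif that reads the same on both strands and is present in 7.8% of promoters, was found in Ms4a4b after the start, in the second promoter of Ms4a7 and in Ms4a8a. The C/EBP motif TTGCNNAA (10.8% of promoters) and the interferon-stimulated response element (3.4%) were in none of these promoters. A match of letters is a description and not evidence of binding.

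To learn which members each population used, levels were first compared within groups. In Ctrl-AM, Ms4a6d was by far the highest member, at 152, 138 and 141 FPKM. Ms4a6c followed at 13.6, 20.9 and 22.1 FPKM, Ms4a7 at 8.31, 10.3 and 8.23, and Ms4a4b at 4.26, 3.74 and 2.86. Ms4a6b, at 2.26, 2.41 and 2.27 FPKM, and Ms4a4c, at 2.53, 0.989 and 1.37, were lowest, and their ranges overlapped. In Tumor-AM the order was the same, but the ranges of Ms4a4b, Ms4a6b and Ms4a4c overlapped. In Tumor-macrophage the order was another one. Ms4a7 was highest, followed by Ms4a6d, Ms4a6c, Ms4a6b, Ms4a4c and Ms4a4b, and no range overlapped that of its neighbour in this order. The plot of member levels by sample shows these values.

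**Figure D1:**
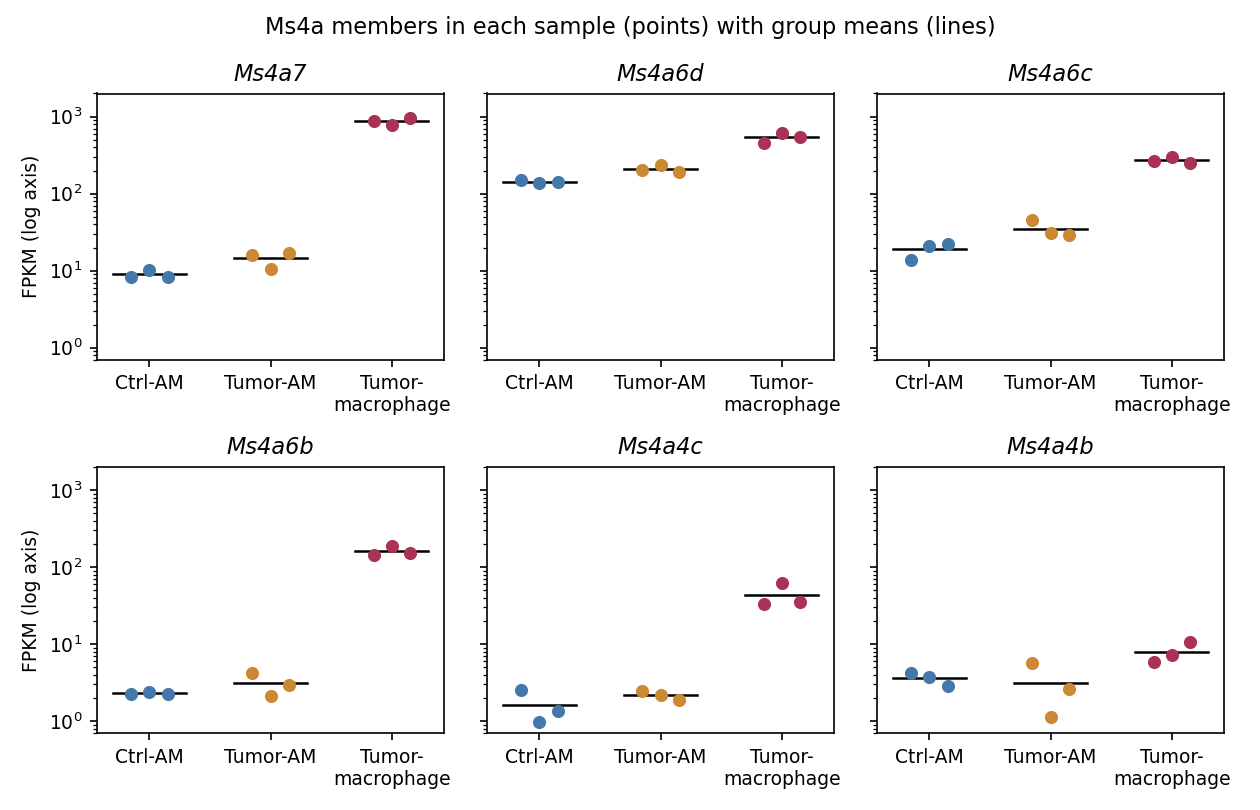
FPKM of the 6 Ms4a members (log axis) in each of the 9 samples, with 1 point per sample, a line at the group mean and 3 samples per group. The 3 Tumor-macrophage samples lie above all AM samples for each member, with Ms4a7 at 791 to 976 FPKM against 8.23 to 17.1 in AMs, whereas Ms4a6d is already at 138 to 237 FPKM in AMs.

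Next, TAMs were compared with the AMs of tumor-bearing mice. All 6 members were higher in TAMs, from 2.5-fold for Ms4a4b to 60.1-fold for Ms4a7 (ratios of mean FPKM). Changes were fitted on log2(FPKM + 1), which understates the change of low genes, with limma over all 10686 genes that had at least 1 FPKM in at least 3 samples, and p-values were adjusted over all of them. By this test 6 of 6 members were higher at an adjusted p under 0.05, against 24.2% of all genes tested called higher and 48.6% called in either direction. The median log2 change of the members was 3.35, compared with 0.0 over all genes. In all 6 the 3 TAM samples lay above the 3 Tumor-AM samples, a pattern shown by 27.6% of all genes.

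Ms4a7, a transcript known from macrophages of monocyte origin, changed most. It was at 16.2, 10.7 and 17.1 FPKM in Tumor-AM and at 873, 791 and 976 FPKM in Tumor-macrophage. The log2 change was 5.84 ± 0.16 (SE, limma adjusted p = 8.65e-10). The lowest TAM sample was far above the highest AM sample. Ms4a6b rose almost as much, from 4.27, 2.16 and 2.91 FPKM to 144, 191 and 151 FPKM, which is 52.1-fold and a log2 difference of 5.33 ± 0.174 (SE, limma adjusted p = 2.98e-09). Ms4a4c rose from 2.45, 2.21 and 1.88 FPKM to 33.4, 62.6 and 35.3 FPKM, a log2 rise of 3.76 ± 0.255 (SE, limma adjusted p = 5.91e-07), and Tumor-macrophage 2 was the highest of the 3 TAM samples. These 3 genes were low in AMs beside TAMs, at a mean of 1.66% (Ms4a7), 1.92% (Ms4a6b) and 4.98% (Ms4a4c) of their TAM level in Tumor-AM.

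Ms4a6c and Ms4a6d were high in TAMs but also clearly present in AMs. Ms4a6c was at 45.4, 30.7 and 29.1 FPKM in Tumor-AM and at 264, 296 and 254 FPKM in Tumor-macrophage, a log2 difference of 2.94 ± 0.193 (SE, limma adjusted p = 4.6e-07). Its close copy Ms4a6b thus had 1.92% and Ms4a6c had 12.9% of the TAM level in Tumor-AM. Ms4a6d was at 200.3, 237 and 189.6 FPKM in Tumor-AM and at 457, 618 and 549.7 FPKM in Tumor-macrophage. Its log2 change of 1.36 ± 0.116 (SE, limma adjusted p = 3.55e-06) was small beside those of Ms4a7 and Ms4a6b, and its Tumor-AM level was 38.6% of that in TAMs. Over the 6 members, the mean level in Tumor-AM thus ran from 1.66% to 39.9% of that in TAMs.

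Ms4a4b was the lowest member in TAMs and the least certain. It was at 5.76, 1.14 and 2.64 FPKM in Tumor-AM and at 5.82, 7.33 and 10.8 FPKM in Tumor-macrophage. The groups did not overlap, but Tumor-AM 1 and Tumor-macrophage 1 were close to each other. The log2 change was 1.22 ± 0.356 (SE, limma adjusted p = 0.0156), and without Tumor-macrophage 3 it was 1.01 (limma adjusted p = 0.0645). Ms4a4b is known from T cells, and 7 T and NK cell markers (Cd3e, Cd3d, Cd3g, Lck, Nkg7, Klrd1 and Ncr1) summed to 9.68 to 12.0 FPKM for Ctrl-AM, to 20.4, 8.47 and 25.1 for Tumor-AM and to 33.7, 25.9 and 46.9 for TAMs. Of these, 4 of the 6 tested were called higher in TAMs than in Tumor-AM, against 24.2% of all genes, and none was at 0 in a whole group. In both Ms4a4b and the marker sum, Tumor-AM 2 was the lowest and Tumor-macrophage 3 the highest sample. The order of the other samples of these groups differed. Tumor-macrophage 1 was below Tumor-macrophage 2 in Ms4a4b but above it in the sum. Tumor-AM 1 was above Tumor-AM 3 in Ms4a4b but below it in the sum. Mean Ms4a4b was also higher without a tumor (3.62 FPKM) than with one (3.18 FPKM in Tumor-AM). The sum, by contrast, was higher in Tumor-AM 1 and Tumor-AM 3 than in any Ctrl-AM sample. The part of T and NK cells in the Ms4a4b values was not tested.

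Against Ctrl-AM the picture was similar, with the same TAM samples. Here both cell type and the presence of the tumor differed between the groups. All 6 members were called higher in Tumor-macrophage, against 27.7% of all genes called higher and 54.8% called in either direction, and the median log2 change was 3.94, compared with -0.01 over all genes. The 3 TAM samples lay above the 3 Ctrl-AM samples for 6 of 6, against 31.1% of all genes. The log2 changes were 6.47 for Ms4a7, 5.61 for Ms4a6b, 4.07 for Ms4a4c, 3.8 for Ms4a6c and 1.9 for Ms4a6d, all with limma adjusted p-values no higher than 2.45e-07. Ms4a4b changed by 0.93 ± 0.356 (SE, limma adjusted p = 0.0465), and this call was lost in 14 of 20 alternative analyses. Among them were those without Ctrl-AM 1 (1.03), Ctrl-AM 2 (0.96), Ctrl-AM 3 (0.81), Tumor-AM 3 (0.93), Tumor-macrophage 2 (0.97) or Tumor-macrophage 3 (0.72), with limma adjusted p-values of 0.0594 to 0.156.

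**Figure D2:**
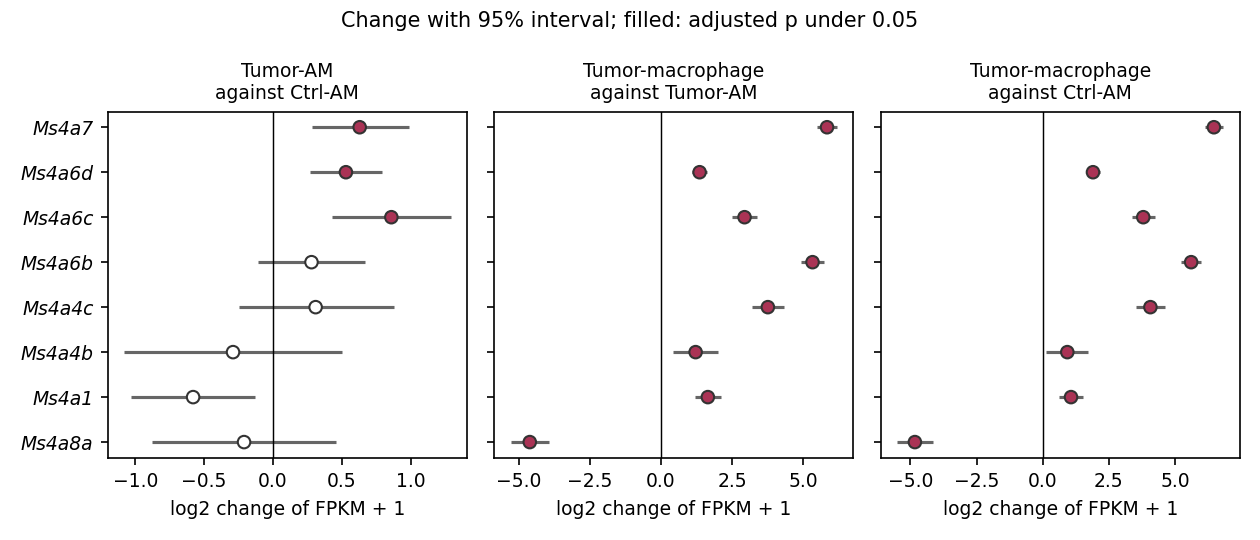
Change in log2(FPKM + 1) of the 6 members, Ms4a1 and Ms4a8a in the 3 comparisons, as points with the 95% interval of the limma fit over 9 samples, filled where the adjusted p was under 0.05. The horizontal range differs between panels. The members reach 5.84 (Ms4a7) between TAMs and Tumor-AM but at most 0.86 (Ms4a6c) between Tumor-AM and Ctrl-AM, and Ms4a8a is at -4.61 and -4.83 in TAMs.

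The question of the series was how AMs change in the presence of the tumor, and there 3 of 6 members passed the threshold. Tumor-AM exceeded Ctrl-AM 1.86-fold in Ms4a6c, 1.45-fold in Ms4a6d and 1.64-fold in Ms4a7 (ratios of mean FPKM). Ms4a6b (1.35-fold), Ms4a4c (1.34-fold) and Ms4a4b (0.879-fold) were not past the threshold. By the limma test 3 of 6 members were called higher and 0 lower, against 7.11% of all genes called higher, 3.18% lower and 10.3% in either direction. The median log2 change of the 6 members was 0.42, compared with 0.01 over all genes. In 3 of 6 all Tumor-AM samples lay above all Ctrl-AM samples, against 18.9% of all genes.

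Ms4a6d rose from 152, 138 and 141 FPKM in the control samples to 200.3, 237 and 189.6 FPKM, a log2 difference of 0.53 ± 0.116 (SE, limma adjusted p = 0.0179). This was the largest step among the members in FPKM, from a mean of 144 ± 7.05 to 209 ± 25.1 (SD, n = 3 each), equal to 12.1% of the TAM mean. Ms4a6c rose from 13.6, 20.9 and 22.1 FPKM to 45.4, 30.7 and 29.1 FPKM, with a log2 difference of 0.86 ± 0.193 (SE, limma adjusted p = 0.0201). The groups did not overlap, and Tumor-AM 1 was the highest. Ms4a7 rose from 8.31, 10.3 and 8.23 FPKM to 16.2, 10.7 and 17.1 FPKM, with a log2 difference of 0.63 ± 0.16 (SE, limma adjusted p = 0.0326). Here Tumor-AM 2 was only just above Ctrl-AM 2.

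These 3 calls were close to the threshold. The count of 3 members fell to 1 without Ctrl-AM 1, Ctrl-AM 3 or Tumor-AM 1. Ms4a6c lost its call without Ctrl-AM 1 (0.65, limma adjusted p = 0.0624) or Tumor-AM 1 (0.67, limma adjusted p = 0.0527). Ms4a6d lost it without Ctrl-AM 2 (0.50, limma adjusted p = 0.0631), Ctrl-AM 3 (0.52, limma adjusted p = 0.0678) or Tumor-AM 2 (0.44, limma adjusted p = 0.0511). Ms4a7 lost it without Ctrl-AM 1 (0.59, limma adjusted p = 0.112), Ctrl-AM 3 (0.58, limma adjusted p = 0.114), Tumor-AM 1 (0.55, limma adjusted p = 0.0977) or Tumor-AM 3 (0.52, limma adjusted p = 0.105). Ms4a7 also lost it with a constant prior variance (limma adjusted p = 0.0514) and in a fit of the 2 groups alone (limma adjusted p = 0.0571). In TPM, Ms4a6d (0.39, limma adjusted p = 0.0599) and Ms4a7 (0.52, limma adjusted p = 0.0647) lost it. With no filter on low values, Ms4a6c (limma adjusted p = 0.0606) and Ms4a7 (limma adjusted p = 0.0826) lost it. The FPKM of all genes summed to 635560 to 660730 in Ctrl-AM and to 694977 to 731731 in Tumor-AM, and TPM sets these sums equal. In all, the call was lost in 5 of 20 alternatives for Ms4a6c, 6 for Ms4a6d and 10 for Ms4a7. The direction of these 3 genes held in all 20 alternatives, but most of these could not turn it. Filters, thresholds and variance settings leave the estimate as it is. Since the groups did not overlap, leaving out 1 sample could not turn the direction either. The background moved too, since the 1100 genes called in either direction were 535 without Ctrl-AM 1, 682 without Ctrl-AM 2, 546 without Ctrl-AM 3 and 675 without Tumor-AM 3.

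For the other 3 members no change was shown, and the intervals say how large one could be. Ms4a6b read 2.26, 2.41 and 2.27 FPKM without a tumor and 4.27, 2.16 and 2.91 FPKM with one, a log2 difference of 0.28 with a 95% interval from -0.11 to 0.67 (limma adjusted p = 0.366). Ms4a4c, at 2.53, 0.989 and 1.37 FPKM and at 2.45, 2.21 and 1.88 FPKM, differed by 0.31, with an interval from -0.25 to 0.88 (limma adjusted p = 0.501). Ms4a4b differed by -0.29, with an interval from -1.08 to 0.50 (limma adjusted p = 0.68), and without Tumor-AM 2, its lowest sample, by 0.12. The intervals of Ms4a6b and Ms4a4c include a rise as large as that of Ms4a6d (0.53). That of Ms4a4b ends just below such a rise but includes a fall of that size. Whether the members differed from each other in this comparison was not tested.

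Markers of monocyte-derived macrophages also rose in Tumor-AM, 6 of the 7 being called higher, against 7.11% of all genes, and Cx3cr1 (log2 change 0.14, limma adjusted p = 0.742) not. The difference between Tumor-AM and Ctrl-AM, as a percent of the TAM mean, was 0.331 for C1qa, 0.531 for C1qb, 0.335 for C1qc, 0.233 for Cx3cr1, 0.407 for Aif1, 1.17 for Apoe and 6.78 for Ccr2. For Ms4a7 it was 0.647%, within the range of these markers. For Ms4a6c it was 5.97%, above 6 of the 7, and for Ms4a6d 12.1%, above all of them. Among monocyte markers it was 18.7% for F13a1 and 219.6% for Fn1, both above Ms4a6d, and 4.58% for Ly6c2 and 2.73% for Plac8. The monocyte markers (Ly6c2, Plac8, Vcan, F13a1 and Fn1) summed to 63.6 to 83.4 FPKM in AMs without a tumor and to 148 to 179 in those with one, and 3 of the 4 tested were called higher. Most of this sum was Fn1, at a mean of 58.6 FPKM in the former and 136 in the latter, which was lower in TAMs (35.3 FPKM, log2 change -1.92 against Tumor-AM, limma adjusted p = 6.08e-07). The part of TAM-like or monocyte cells within the AM gate in these 3 results was not tested.

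**Figure D3:**
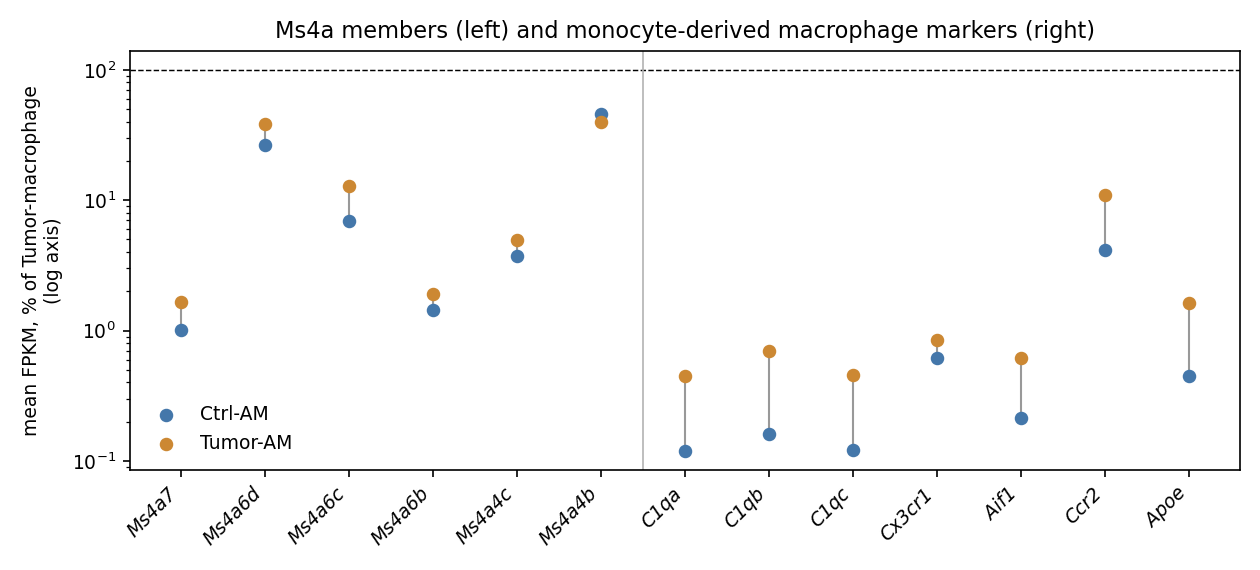
Mean FPKM of both AM groups as a percent of the Tumor-macrophage mean (log axis, dashed line at 100%), for the 6 members and for 7 markers of monocyte-derived macrophages, with 3 samples behind each mean. In Tumor-AM the complement genes C1qa, C1qb and C1qc are at 0.451% to 0.692% of their TAM level, and the members run from 1.66% for Ms4a7 to 38.6% for Ms4a6d and 39.9% for Ms4a4b.

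To place the members in the whole family, the other Ms4a genes and the related genes Tmem176a and Tmem176b were examined. Of 17 such genes listed, 12 had values and 4 passed the filter. Between Tumor-AM and Ctrl-AM, 0 of these 4 were called, against 10.3% of all genes. Between TAMs and Tumor-AM, 3 were called higher and 1 lower (median change 3.92), against 24.2% of all genes called higher and 48.6% in either direction. The counts against Ctrl-AM were the same, against 27.7% of all genes called higher and 54.8% in either direction.

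The 1 gene that was lower in TAMs was Ms4a8a, whose middle lies at -247 kb from the lower end of Ms4a7 on the same chromosome. Ms4a8a was at 313, 329 and 302 FPKM in Ctrl-AM, at 229, 325 and 267 in Tumor-AM and at 5.34, 17.6 and 10.6 in Tumor-macrophage. It changed by -4.61 ± 0.301 between TAMs and Tumor-AM (SE, limma adjusted p = 4.44e-07) and by -0.21 between Tumor-AM and Ctrl-AM (limma adjusted p = 0.722). In each of the 6 AM samples it was above every member, and in each TAM sample it was below Ms4a7, Ms4a6d, Ms4a6c, Ms4a6b and Ms4a4c.

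Tmem176a and Tmem176b, which encode related proteins of myeloid cells, had larger increases between Tumor-AM and TAMs than any Ms4a gene tested. Tmem176b was at 8.74, 3.06 and 10.9 FPKM in Tumor-AM and at 696, 392 and 657 FPKM in Tumor-macrophage, a log2 rise of 6.18 ± 0.346 (SE, limma adjusted p = 1.41e-07). Tmem176a changed by 6.34 ± 0.406 (SE, limma adjusted p = 3.91e-07). Tumor-AM 2 was lowest for both genes among the AM samples, and Tumor-macrophage 2 among the TAM samples.

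Ms4a1, the B-cell gene for CD20, was at 1.41, 1.66 and 1.93 FPKM in Ctrl-AM, at 0.935, 0.733 and 0.671 in Tumor-AM and at 4.52, 3.12 and 6.67 in Tumor-macrophage. The difference between Tumor-AM and Ctrl-AM was -0.58 (limma adjusted p = 0.103), with all Tumor-AM samples below all Ctrl-AM samples. It passed the threshold in 5 alternatives, namely a pseudocount of 0.1 (-1.01, limma adjusted p = 0.0489), TPM (-0.77, limma adjusted p = 0.0422), a fit of these groups alone (limma adjusted p = 0.0303) and the fits without Tumor-macrophage 2 (limma adjusted p = 0.0425) or Tumor-macrophage 3 (limma adjusted p = 0.0472). That between TAMs and Tumor-AM was 1.65 ± 0.203 (SE, limma adjusted p = 5.93e-05). B-cell markers (Cd79a, Cd79b, Pax5, Ebf1 and Fcmr) summed to 11.02 to 15.6, 2.94 to 7.13 and 28.7 to 52.2 FPKM in the 3 groups, in the same order as Ms4a1, and their part was not tested. Ms4a2, the mast cell gene, was at no more than 0.164 FPKM in any sample. Ms4a3, Ms4a4d, Ms4a15 and Gm8369, a gene between Ms4a6c and Ms4a6b, stayed under the filter, with at most 0.755 FPKM in a sample, and Ms4a5, Ms4a10, Ms4a13 and Ms4a18 were listed at 0 in all 9 samples.

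**Figure D4:**
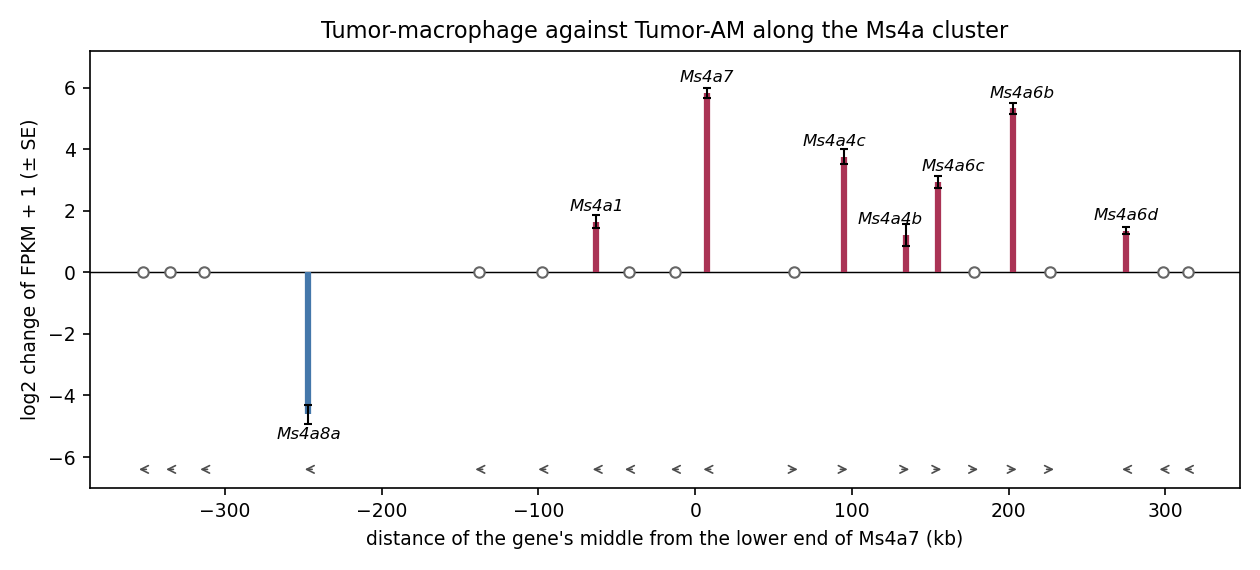
Log2 change between Tumor-macrophage and Tumor-AM along the Ms4a cluster, by distance of each gene's middle from the lower end of Ms4a7 in kb, with bars for genes tested (black lines, SE of the limma fit over 9 samples), open circles for genes with no test and arrows for the strand. Ms4a8a, at -247 kb, has the 1 bar below 0 (-4.61), and the 7 bars from Ms4a1 to Ms4a6d are above 0, from 1.22 for Ms4a4b to 5.84 for Ms4a7.

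The make-up of Ms4a RNA was then described, as shares of the FPKM summed over 16 Ms4a genes. The sum was 496 ± 12.1 FPKM for Ctrl-AM, 542 ± 58.4 for Tumor-AM and 1923 ± 118 for TAMs (SD over 3 samples, as for the shares that follow). Ms4a8a made up 63.4% ± 1.25 of the Ctrl-AM sum, 50.3% ± 4.27 of the Tumor-AM sum and 0.573% ± 0.296 of the TAM sum. The share of Ms4a6d was 29.0% ± 1.65, 38.5% ± 1.34 and 28.1% ± 2.79, and that of Ms4a7 was 1.8% ± 0.196, 2.76% ± 0.878 and 45.9% ± 5.24. Ms4a6c went from 3.81% ± 0.951 over 6.57% ± 2.12 to 14.1% ± 1.22 across the 3 groups. In all 3 Tumor-AM samples the share of Ms4a8a was below, and that of Ms4a6d above, every Ctrl-AM value. Shares of 1 sum depend on each other and were not tested.

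**Figure D5:**
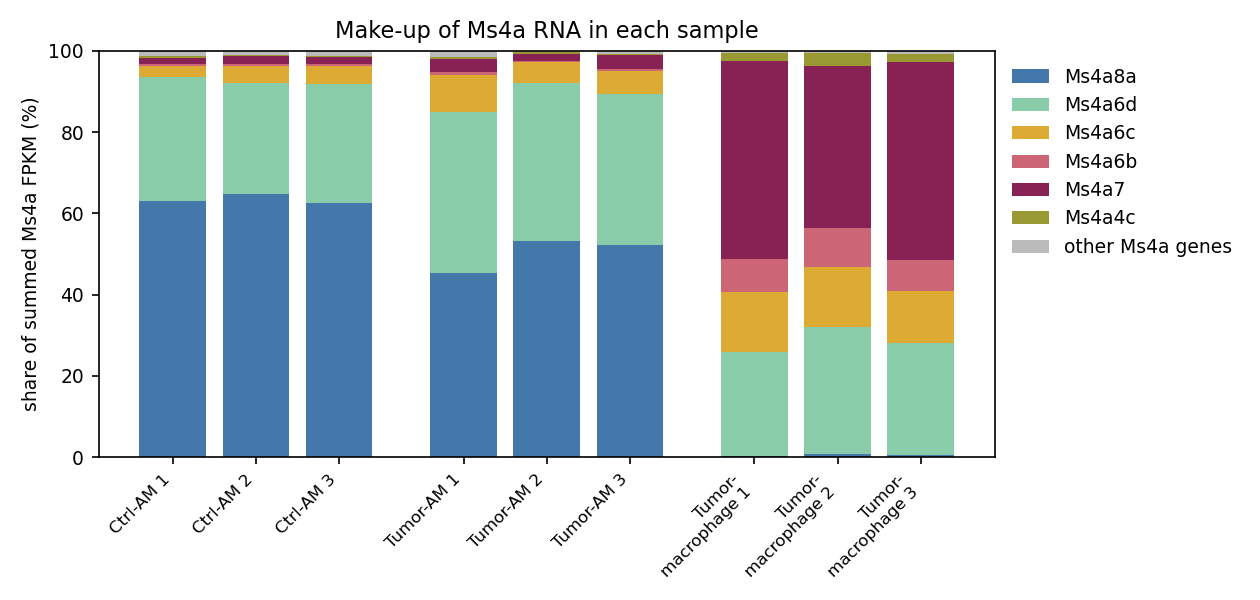
Share of each Ms4a gene in the FPKM summed over 16 Ms4a genes (percent), 1 bar per sample. Ms4a8a and Ms4a6d together fill most of each AM bar, whereas Ms4a7, at 39.8% to 48.9%, is the largest part of each Tumor-macrophage bar and Ms4a8a is under 1% there.

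Genes whose proteins have been described together with MS4A proteins were followed as a list of 6. Between Tumor-AM and Ctrl-AM, 2 were called higher and 0 lower, against 7.11% and 3.18% of all genes. Trem2, a lipid receptor of macrophages, was at 49.6, 51.7 and 41.3 FPKM in Ctrl-AM, at 129, 108 and 155 in Tumor-AM and at 393, 296 and 386 in Tumor-macrophage. It rose by 1.43 ± 0.149 in Tumor-AM (SE, limma adjusted p = 0.000487) and was higher by 1.45 ± 0.149 in TAMs than in Tumor-AM (SE, limma adjusted p = 1.53e-05). The groups of Trem2 did not overlap in either comparison.

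Clec7a, which encodes Dectin-1, went another way. It was at 649, 695 and 676 FPKM in Ctrl-AM, at 1008, 828 and 836 in Tumor-AM and at 416, 371 and 456 in Tumor-macrophage. The rise in Tumor-AM was 0.40 ± 0.098 (SE, limma adjusted p = 0.0293) and was not past the threshold without Ctrl-AM 1, Ctrl-AM 2, Ctrl-AM 3 or Tumor-AM 1 (0.31 to 0.42, limma adjusted p of 0.069 to 0.11). It was also lost in TPM (0.26, limma adjusted p = 0.124), with no filter on low values (limma adjusted p = 0.0748), after quantile normalization (limma adjusted p = 0.0552) and with a constant prior variance (limma adjusted p = 0.0573). In TAMs Clec7a changed by -1.1 ± 0.098 against Tumor-AM (SE, limma adjusted p = 5.04e-06). In that comparison 2 of the 6 were called higher, Trem2 and Fcer1g, and 3 lower, Clec7a, Tnfrsf18 and Syk. Of all genes, 24.2% were called higher and 48.6% in either direction. Tnfrsf18, which encodes GITR, a receptor of T cells, changed by -1.78 (limma adjusted p = 4.86e-06). Fcer1g, a signalling chain of Fc receptors, changed by 0.56 (limma adjusted p = 0.00014), or by 0.15 after quantile normalization (limma adjusted p = 0.147). Syk, the kinase that reads such chains, changed by -0.32 (limma adjusted p = 0.0234), a call lost without Tumor-AM 2, Tumor-AM 3, Tumor-macrophage 2 or Tumor-macrophage 3 (-0.32 to -0.21, limma adjusted p of 0.0568 to 0.0701). Tyrobp, the signalling partner of Trem2, changed by 0.04 (limma adjusted p = 0.728), a direction that turned in TPM (-0.06) and after quantile normalization (-0.66, limma adjusted p = 0.000113).

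Finally, the genes most like each member over the 9 samples were listed, by the root mean square difference of log2(FPKM + 1) after each gene's own mean was subtracted. Ms4a6d had the closest match, Pfkl, at 0.073, followed by Hif1a at 0.129 and Xaf1 at 0.136. For Ms4a6c they were Ccr2 (0.189), Ebi3 (0.245) and Basp1 (0.258). For Ms4a7 they were Olfml3 (0.249), C3ar1 (0.268) and Plbd1 (0.313), and for Ms4a6b Cd38 (0.247), Stab1 (0.261) and Plbd1 (0.271). Ms4a4c lay closest to Mmp13 (0.248), Nxpe5 (0.292) and Tmem171 (0.295), and Ms4a4b to Ctla2a (0.26), Ten1 (0.283) and Tbc1d10c (0.304). Among the members, Ms4a6b and Ms4a7 were most alike (0.411), followed by Ms4a4c and Ms4a6c (0.54) and by Ms4a4b and Ms4a6d (0.647). By this measure the promoter pairs were further apart, at 1.04 for Ms4a6b and Ms4a6c and 1.45 for Ms4a4b and Ms4a4c. The measure is not scaled, so that it depends on the size of a gene's changes as well as on their pattern.

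Reads of similar copies could be exchanged between members. Of all stretches of 75 bases, the read length, in the longest annotated transcript, 3.94% of Ms4a4c, 2.2% of Ms4a4b, 0.69% of Ms4a6b, 0.52% of Ms4a6d and none of Ms4a7 also occurred in a transcript of another gene. In Ms4a6c it was 53.4%, or 3.23% on the same strand, since its exons share 1088 of 2050 bases with the antisense gene BE692007. The use of strand in counting was not stated, so reads of Ms4a6c and BE692007 cannot be told apart, and all Ms4a6c values are uncertain to that extent.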

How the data were processed

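RNA was measured in 9 samples of sorted lung macrophages, 3 each of Ctrl-AM, Tumor-AM and Tumor-macrophage, grouped by their labels. The authors made cDNA with SMART-Seq HT, sequenced single-end reads and mapped them to mm10 with TopHat2 2.1.1 and Bowtie2. They deposited FPKM values, 1 per gene symbol, from Cufflinks 2.2.1 by the study's methods and from Cuffdiff 2.2.1 by the sample records. Multi-mapping, strand, library scaling and annotation are not given in the sources used here. Genes with at least 1 FPKM in at least 3 of 9 samples were fitted on log2(FPKM + 1) with limma 3.58.1 in R 4.3.3, with a trend in the prior variance. Tests were two-sided with Benjamini-Hochberg adjustment over 10686 genes and a threshold of 0.05. The fit was tested on simulated data. Depth was estimated from the spacing of low values, where 55.7% to 58.1% of ratios between samples were those of whole reads (tolerance 0.0002 in log ratio, 0.26% or fewer after displacing the grid), and covers counting error only. Whole reads were not recovered, so no count test was run. Positions and transcripts came from GENCODE vM21 and promoters from RefSeq. The members, marker lists and other lists were chosen with earlier results of these data known. A few marker genes are not reported here and were left out of the marker sums and counts. Genes named were the members, the listed genes and the 3 nearest patterns of each member. Python 3.11.15 was used for tables and plots.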

Additional observations from a re-analysis of the deposited data

How the results depend on the processing

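Each member was refitted under 20 alternatives: a pseudocount of 0.1, other filters, other scalings, a constant prior variance, the compared groups alone, stricter thresholds, a replicate block and each sample left out. In both TAM comparisons Ms4a4c, Ms4a6b, Ms4a6c, Ms4a6d and Ms4a7 kept their direction and call in all 20. Their groups did not overlap there, so that leaving out 1 sample could not turn the direction. For Tumor-AM against Ctrl-AM the 3 members called were 1 with no filter, 1 after rescaling to TPM, 0 at a threshold of 0.01, 0 with a 2-fold minimum and 1 to 3 with 1 sample left out. Of all genes, 1100 became 429 at 0.01, 208 with the 2-fold minimum and 535 to 1255 with 1 sample left out. The 2-fold minimum gave 1827 genes for TAMs against Tumor-AM and 2150 against Ctrl-AM. Without a filter on low values 542 genes were higher and 230 lower in Tumor-AM than in Ctrl-AM. In TPM the median change of all genes was -0.109, -0.085 and -0.222 in the 3 comparisons (Tumor-AM against Ctrl-AM, TAMs against Tumor-AM and against Ctrl-AM) in place of 0.014, 0.001 and -0.008, and the split of higher and lower genes moved from 760 and 340 to 475 and 824, from 2588 and 2603 to 2129 and 3129, and from 2960 and 2900 to 2130 and 4409. Quantile normalization gave 607 and 446 for the first. Members kept their sign under both.

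Signs that turned were of values not past the threshold, except where stated. With 1 sample left out, Tumor-AM against Ctrl-AM ran from -0.71 to 0.12 for Ms4a4b, from -0.94 to 0.01 for Tmem176a and from -0.66 to 0.11 for Tmem176b, each highest without Tumor-AM 2. Fcer1g in that comparison was -0.07 in TPM and -0.19 after quantile normalization, which also took its called change of TAMs against Ctrl-AM from 0.64 to -0.04. Tyrobp for TAMs against Tumor-AM was -0.06 in TPM, -0.66 after quantile normalization (limma adjusted p = 0.000113) and -0.01 to 0.07 with 1 sample left out, lowest without Tumor-macrophage 3. Against Ctrl-AM it was -0.01, ran from -0.06 to 0.03 with 1 sample left out, and passed the threshold in TPM (-0.24, limma adjusted p = 0.0174) and after quantile normalization (-0.85, limma adjusted p = 1.42e-05). The causes were not tested.

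The sources do not say that replicate numbers mark shared mice, and the data did not settle whether they pair the samples: deviations of same-numbered samples correlated at r of -0.062 to 0.159 over genes, and the best match had the same number in 12 of 18 comparisons. With the replicate number as a block, 938 genes were called for Tumor-AM against Ctrl-AM, 5069 for TAMs against Tumor-AM and 5772 for TAMs against Ctrl-AM, with 3, 6 and 5 of 6 members, the 1 lost being Ms4a4b (0.93, limma adjusted p = 0.0506). Depth limits values near 1 FPKM, as of Ms4a4c in AMs.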
